A study of Mus musculus with 4 samples.

Results

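The genes described here build and run the primary cilium, a microtubule-based projection of the cell surface. They were 48 genes listed by function, and a gene with several probe sets was represented by the brightest, that is, the one whose mean over the 4 arrays was greatest. Of these, 45 were measured among 18194 genes in all, while Arl6, Arl13b and Rpgrip1l were not analysed here. The mean level thus chose the probe set, but it included the SAHA arrays, so a rise with SAHA could favour a probe set. For Pcm1 the chosen probe set had a lower control mean than a further one (6.50 against 6.73). The 45 genes comprised 12 of intraflagellar transport complex B (IFT-B), 6 of complex A (IFT-A), 8 of the BBSome and its chaperonins, 5 motor subunits, 3 of GTPase and membrane cargo handling, 8 of the transition zone and 3 of the basal body and centriolar satellites.

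The study hybridised RNA of dendritic cells of C57BL/6 mice to 4 Affymetrix arrays, 2 for cells given control diluent and 2 for cells given SAHA, both for 12 hours. SAHA, or vorinostat, is a hydroxamic acid that blocks histone deacetylases, and the labels give 500 nm as its dose. All cells had been grown from marrow of at least 3 mice per experiment for 7 days in GM-CSF and IL-4 (10 ng/ml each) and then selected for CD11c to a stated purity of 95%. The genotype, beyond the strain, and the age of the mice are not stated. The titles number the arrays as biological replicates but do not say whether separate marrow cultures gave rise to them, so the p-values reflect the scatter of these arrays alone, which may be technical. For a single gene, the smallest two-sided p that an exact permutation of 2 against 2 arrays allows is 0.333.

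Cilia are assembled by intraflagellar transport, in which trains of IFT-B and IFT-A proteins carry cargo along the axoneme. Kinesin-2 moves the trains outward and dynein-2 brings them back. The BBSome is a coat-like complex that links membrane proteins to the trains, and the transition zone at the cilium's base restricts what enters and leaves. Blood cells are textbook examples of cells that lack a primary cilium, and several IFT proteins have been studied in leukocytes in vesicle traffic to the immune synapse, so the transcripts below are measurements of RNA and not of cilia.

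In SAHA-treated cells the ciliary genes lay mostly above their control levels. Of the 45 genes, 40 had a log2 change above 0 and 5 below, against 41.2% above 0 among all genes, and the median log2 change was 0.41 against -0.05 for all genes. The groups did not overlap, with SAHA higher, for 33 of the 45 (21.1% of all genes), and with SAHA lower for 2, Ift172 and Kif3b (29.6% of all genes). Higher levels passed the threshold for 8 genes, namely Ift81, Ift74, Ift27, Ift122, Bbs12, Bbs1, Kifap3 and Tctn1 (limma, Benjamini-Hochberg adjusted p under 0.05 over all genes), and 1.52% of all genes did so (2.23% in either direction). Lower levels passed for 0 of the 45 and for 0.709% of all genes; at an unadjusted p under 0.05, 22 of the 45 were higher and 0 lower, against 9.17% and 8.9% of all genes. Since these genes were picked with earlier results of the same data known, the counts and medians are a description without a test of their own. In these bulk samples a change in RNA per cell and a change in the mix of cells cannot be told apart.

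**Figure D1:**
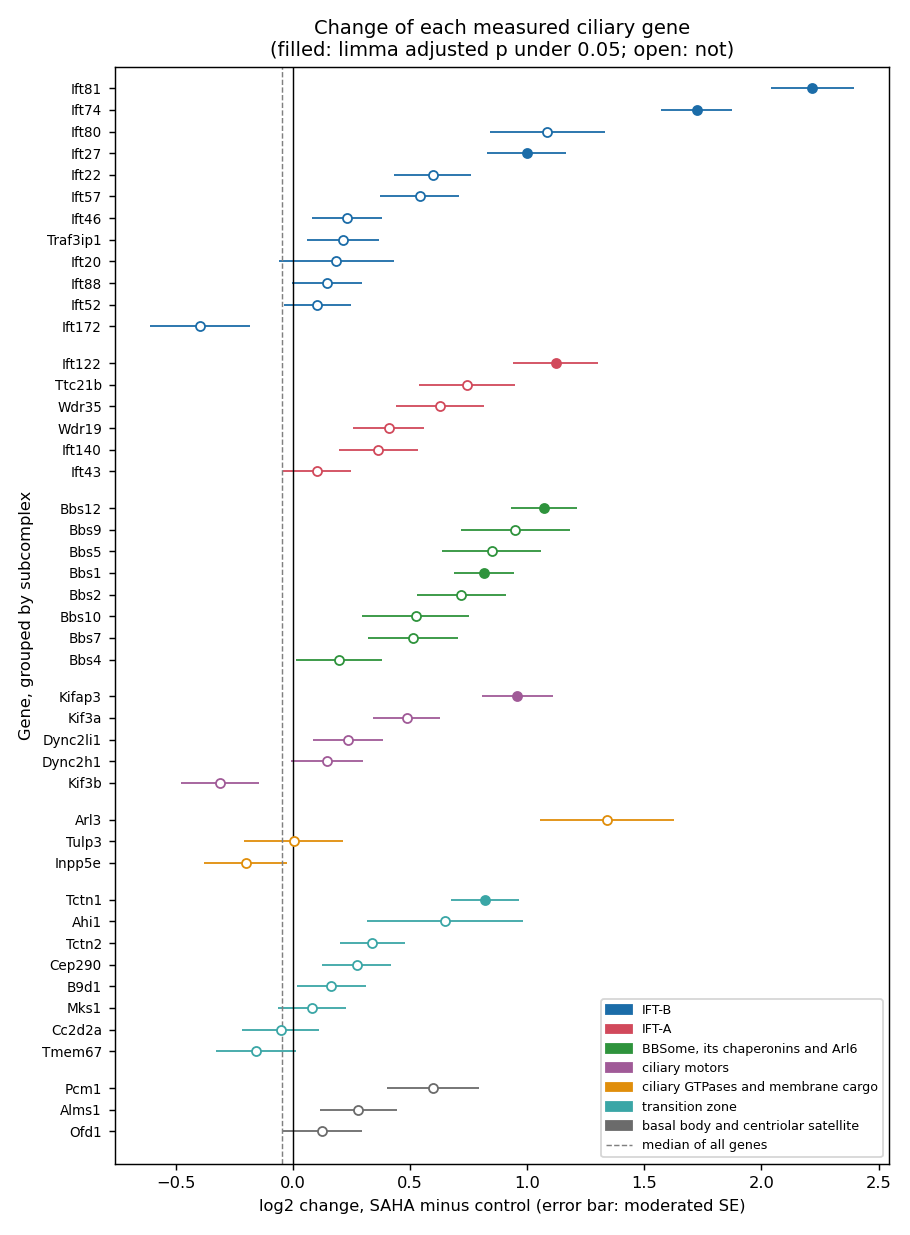
Log2 change (SAHA minus control, horizontal axis) of each of the 45 measured ciliary genes, grouped and coloured by subcomplex, with the moderated standard error as the bar; filled points passed the adjusted p threshold. The changes run from -0.40 for Ift172 to 2.22 for Ift81, and the dashed line marks the median of all genes at -0.05.

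**Figure D2:**
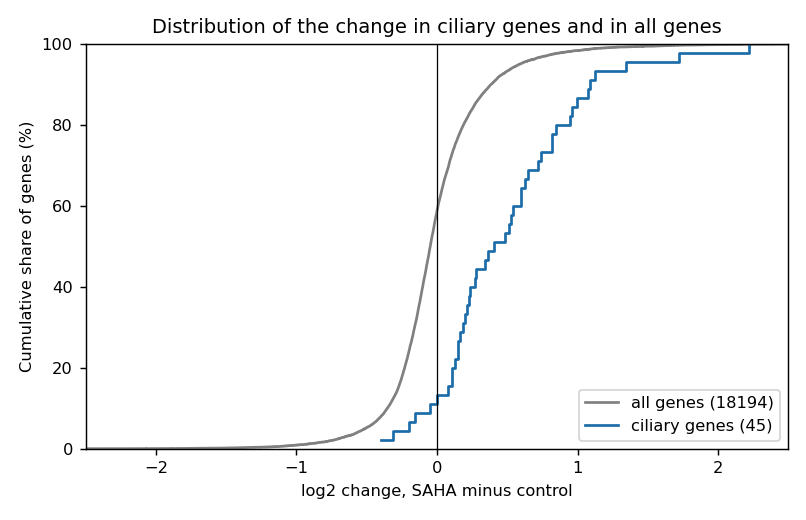
Cumulative share of genes (vertical axis, percent) against the log2 change, SAHA minus control, for 45 ciliary genes and for all 18194 genes; the ends of the horizontal axis leave out a few genes of the whole set. At a change of 0 the curve of the ciliary genes has reached 5 of 45 genes, and their median lies at 0.41.

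The call count depended on single arrays. Without SAHA replicate 1, 1 of the 45 genes passed (Ift81), without SAHA replicate 2 there were 2 (Ift81 and Ift74), without control replicate 2 there were 3 (Ift81, Ift74 and Bbs12), and without control replicate 1 there were 9. The count of all genes past the threshold moved as well, from 405 to 31, 90, 347 and 529 in the same order. In those fits 39, 38, 40 and 40 of the 45 genes lay above 0. Each SAHA array set against each control array gave 38 to 40 genes above 0, with medians of 0.33 to 0.49, whereas the medians of all genes in these differences were -0.08 to -0.01.

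Ciliary promoters are known for the X-box, the site of RFX transcription factors, which is built of facing hexamers. RefSeq promoter windows (build GRCm38.p6, 250 bases before to 50 after each start) were on hand for 42 of the 48 genes and were searched on both strands for the hexamer GTTGCC, whose reverse complement is GGCAAC. It stood in a window of 18 of the 42 genes (42.9%) and of 14.1% of all genes with a window. The facing pair, GTTNCC and GGNAAC with 0 to 3 bases between them, was found in 5 of the 42 (11.9%) and in 0.936% of all genes with a window. That background is 27025 genes with a window, measured or not, and was not matched to the ciliary genes. The stretches with a pair are shown whether or not the gene passed the threshold. That of Ift27 was added as an example of a called gene with the hexamer alone. The other stretches with the hexamer alone are not shown, among them that of Bbs1, which is a called gene too. Matched letters are in capitals, 5′ to 3′ on the strand of the gene. The matches for Ahi1 and Tctn1 lie after the annotated start, and the motif alone is given there.
Bbs7 (chr3:36613477-36613530, minus strand): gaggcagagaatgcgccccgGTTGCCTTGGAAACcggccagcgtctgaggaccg
Ift57 (chr16:49699214-49699266, plus strand): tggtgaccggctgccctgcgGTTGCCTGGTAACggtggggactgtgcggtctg
Mks1 (chr11:87853171-87853214, plus strand): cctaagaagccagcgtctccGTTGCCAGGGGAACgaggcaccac
Ahi1 (chr10:20952568-20952581, plus strand): GTTACCTAGGCAAC
Tctn1 (chr5:122264411-122264424, minus strand): GTTGCCCGGGCAAC
Ift27, with the hexamer only (chr15:78174082-78174110, minus strand): gagaaggcgggttgatgatgGTTGCCagg

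Matches stood both in genes that passed the threshold and in genes that did not. Of the 8 genes past the threshold 6 had a window; 3 of these held the hexamer (Ift27, Bbs1 and Tctn1) and 1 the facing pair (Tctn1). Of the 33 measured genes that did not pass and had a window, 14 held the hexamer and 4 the pair. The log2 changes of Ift57 and Bbs7, which carry a pair, were 0.54 and 0.51, and that of Mks1, which carries one too, was 0.08. A match of letters is a description of the sequence and is neither a site shown to be bound nor a cause.

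IFT-B held the largest changes of the set. Of its 12 measured genes 3 passed as higher and 0 as lower, against 1.52% and 0.709% of all genes. Their median log2 change was 0.39, and 11 lay above 0 (41.2% of all genes). That median was 0.24 with averaged probe sets and 0.23 among genes above the median level. Ift81 and Ift74 encode the coiled-coil partners that form the tubulin-binding unit of the train. Ift81 read 4.95 and 4.58 log2 units in the control arrays and 6.92 and 7.04 in the SAHA arrays. The groups lay far apart relative to their spread, a rise of 4.65-fold (log2 change 2.22 ± 0.18, SE, limma adjusted p = 0.0108). Ift74 read 5.75 and 5.77 in control and 7.56 and 7.41 with SAHA, a rise of 3.30-fold (1.72 ± 0.15, adjusted p = 0.0114). The control values of Ift74 were nearly equal, and its groups did not overlap.

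Ift27 encodes a small GTPase of IFT-B that serves the exit of the BBSome and its cargo. It read 7.94 and 7.82 in control and 9.03 and 8.73 with SAHA, a rise of 2.00-fold (log2 change 1.00 ± 0.17, SE, adjusted p = 0.0422). Its obligate partner IFT25 is encoded by Hspb11, outside the chosen genes, which read 8.18 and 8.19 in control and 8.94 and 8.90 with SAHA. The groups of Hspb11 did not overlap either, with a log2 change of 0.73 ± 0.14 that missed the threshold (adjusted p = 0.0587). Ift22, another small GTPase, which binds the IFT74-IFT81 unit, had a change of 0.60 (adjusted p = 0.133).

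Ift80, a subunit of the peripheral part of IFT-B, lay just outside the threshold. It read 5.49 and 5.58 in control and 6.98 and 6.27 with SAHA, and the wide gap between the SAHA arrays went with a log2 change of 1.09 ± 0.25 and an adjusted p of 0.0884. Its second probe set gave 1.23, and the mean of both passed (1.16, adjusted p = 0.0451). Ift57 had a change of 0.54. The other IFT-B genes were close to their control levels. Ift46, Traf3ip1 (IFT54), Ift20, Ift88 and Ift52 lay between 0.10 and 0.23. Ift172, the largest subunit of the train, was the 1 IFT-B gene below 0. It read 8.64 and 9.15 in control and 8.36 and 8.64 with SAHA, a change of -0.40 ± 0.21 that did not pass (adjusted p = 0.389). The core subunits of IFT-B had a median of 0.60 over 7 genes and the peripheral ones of 0.21 over 5, a division made after the values were seen and not tested.

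IFT-A moves cargo back to the cell body and admits membrane proteins to the cilium. All 6 measured genes lay above 0 (41.2% of all genes). For all 6 both SAHA arrays lay above both control arrays (21.1% of all genes). Their median was 0.52 (0.33 once 32 was added to the linear values), but only Ift122 passed. Ift122, a core subunit, read 6.88 and 6.58 in control and 7.97 and 7.73 with SAHA, a rise of 2.18-fold (log2 change 1.12 ± 0.18, SE, adjusted p = 0.0405). Its second probe set gave 0.89. Ttc21b, the IFT139 subunit, had a change of 0.74 ± 0.20 (adjusted p = 0.132), but its other probe set gave 0.18. Wdr35, the IFT121 subunit, had 0.63 ± 0.19 (0.158), and here the further probe set gave a larger change of 1.59. Wdr19 (IFT144), Ift140 and Ift43 had changes of 0.41, 0.36 and 0.10.

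The 8 measured BBSome genes all lay above 0, against 41.2% of all genes. Their median of 0.77 was 0.42 once 32 was added to the linear values. Of the 8, 2 passed as higher and 0 as lower, against 1.52% and 0.709% of all genes. Bbs12 encodes a chaperonin-like protein needed to assemble the complex. It read 4.68 and 4.53 in control and 5.62 and 5.74 with SAHA, a rise of 2.10-fold (log2 change 1.07 ± 0.14, SE, adjusted p = 0.0241). Bbs1, the subunit that is recruited to membranes by the GTPase ARL6, read 4.12 and 3.98 in control and 4.78 and 4.95 with SAHA, a rise of 1.76-fold (0.82 ± 0.13, adjusted p = 0.0391). The value of 3.98 was below the 25th percentile of that array, 4.04, so the control level of Bbs1 was near the bottom of the scale. Raising such values to that percentile left Bbs1 past the threshold at 0.78.

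The other BBSome genes did not pass. The subunits Bbs9, Bbs5 and Bbs2 had log2 changes of 0.95 ± 0.23, 0.85 ± 0.21 and 0.72 ± 0.19 (adjusted p = 0.108, 0.111 and 0.124). For each of them both SAHA arrays lay above both control arrays, as for 7 of the 8 genes in all (21.1% of all genes). Bbs7 and the chaperonin-like Bbs10 had 0.51 and 0.52, and a second probe set of Bbs10 gave 0.09. Bbs4 had the smallest change at 0.20, and its groups overlapped.

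Among the motors the subunits of kinesin-2 had changes of both signs. Kifap3, the accessory subunit KAP3 that joins the motor to cargo, read 7.999 and 7.901 in control and 8.824 and 8.992 with SAHA, a rise of 1.94-fold (log2 change 0.96 ± 0.15, SE, adjusted p = 0.0391). A second probe set of Kifap3 gave 0.93. Kif3a, a motor chain, read 8.09 and 8.05 in control and 8.60 and 8.52 with SAHA, and its change of 0.49 ± 0.14 did not pass (adjusted p = 0.151), with 0.53 to 0.64 in its 3 further probe sets. Kif3b, the chain that pairs with KIF3A, read 8.37 and 8.60 in control and 8.28 and 8.07 with SAHA. All 4 probe sets of Kif3b lay below 0, from -0.42 to -0.18, and its change of -0.31 ± 0.17 did not pass (adjusted p = 0.386). The dynein-2 heavy chain Dync2h1 and light intermediate chain Dync2li1 had changes of 0.15 and 0.23. Whether the kinesin-2 subunits differ from each other in their change was not tested.

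Arl3, a GTPase that releases lipidated proteins from their carriers inside the cilium, had the largest change outside the called genes. It read 8.69 and 7.94 in control and 9.91 and 9.41 with SAHA. The groups did not overlap, but the control arrays stood apart (SD 0.53) and the change of 1.34 ± 0.29 missed the threshold (adjusted p = 0.0758). Without control replicate 1 it passed at 1.72 (adjusted p = 0.0185). Inpp5e, a phosphoinositide phosphatase kept in the ciliary membrane, had -0.20, and Tulp3, which brings receptors to IFT-A, had 0.00.

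Of the 8 measured genes of the transition zone 6 lay above 0 (41.2% of all genes) and 1 passed as higher (1.52% of all genes). Their median log2 change was 0.22. The median was 0.10 with the offset of 32, 0.12 without SAHA replicate 2 and 0.37 among genes above the median level. Tctn1, a tectonic protein of the transition zone, read 5.81 and 5.86 in control and 6.68 and 6.63 with SAHA, a rise of 1.76-fold (log2 change 0.82 ± 0.15, SE, adjusted p = 0.0488). Tctn1 lay closest inside the threshold, and it passed in none of the 4 fits that left out an array, with an adjusted p of 0.0768 to 0.322. Its relative Tctn2 had 0.34, and Ahi1, whose SAHA arrays read 7.90 and 6.94, had 0.65 ± 0.33. Cep290, B9d1, Mks1, Cc2d2a and Tmem67 lay between -0.16 and 0.27. Of the centrosomal genes, Pcm1, the scaffold of centriolar satellites, had 0.60 ± 0.20 (adjusted p = 0.192), while its 4 further probe sets gave 0.06 to 0.28. Alms1 and Ofd1 had 0.28 and 0.13.

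**Figure D3:**
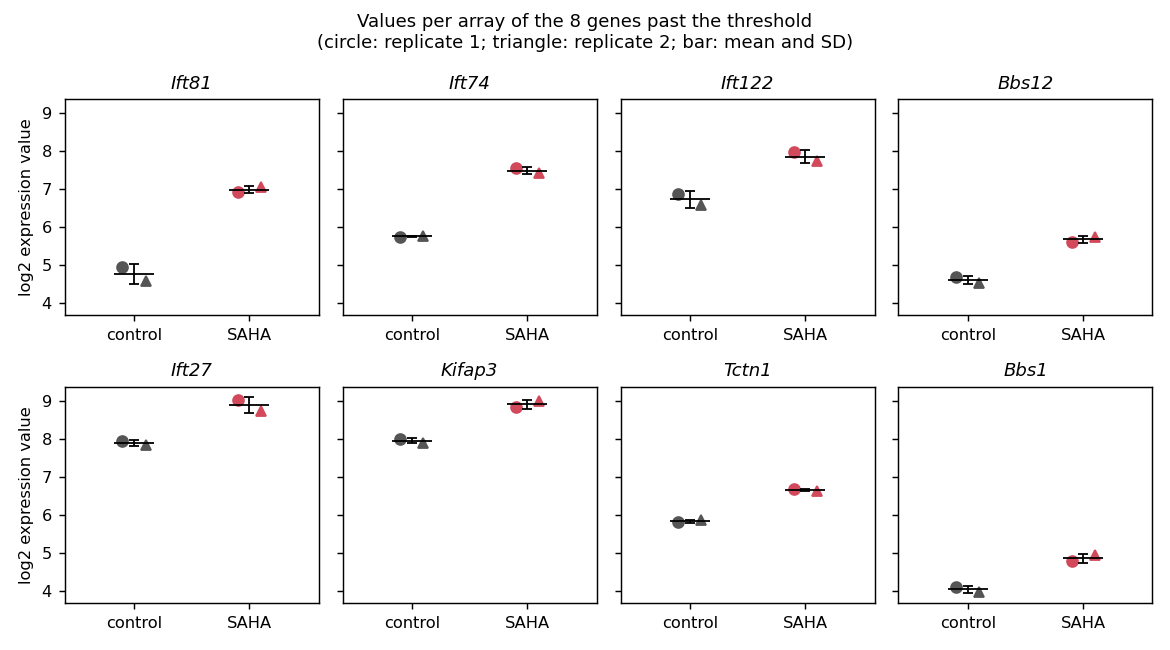
Log2 expression value (vertical axis) in each control and SAHA array for the 8 ciliary genes past the threshold; circles are replicate 1, triangles replicate 2, and the bar gives the mean and SD (n = 2). In every panel both SAHA arrays lie above both control arrays, with the widest gap for Ift81, from 4.95 and 4.58 to 6.92 and 7.04.

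Several probe sets read some of these genes. Of the 45 genes 27 had 1 probe set and 18 had more, with 30 further probe sets in all. Of the 25 further probe sets whose values all lay above the 25th percentile of their arrays, 18 were above 0 and 3 had the sign opposite to the chosen one. These 3 were small, -0.06 for Ift57 and -0.06 and -0.07 for Tulp3. The probe set of Ift81 belongs to a class that may cross-match other transcripts, and a further one gave 0.76 against 2.22, while another of Ift81, at -0.03, read below the 25th percentile on every array. Those of Ift27 and Ift122 were of such classes too, and the further probe sets of Ift27 gave 0.76 and 0.17 against 1.00. When probe sets were averaged, Ift27 and Ift122 missed the threshold (0.64, adjusted p = 0.143, and 1.00, adjusted p = 0.0615).

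**Figure D4:**
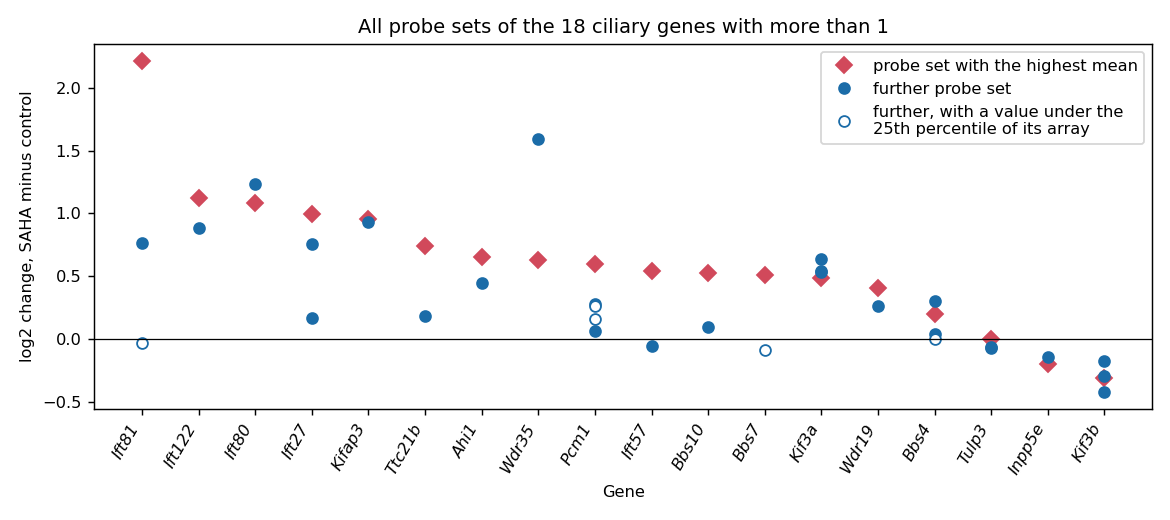
Log2 change, SAHA minus control, of every probe set of the 18 ciliary genes with more than 1; diamonds are the brightest probe set and circles the further ones, open where an array's value was below that array's 25th percentile. Kif3a and Kif3b keep to opposite sides of 0 in all of their probe sets, and Wdr35 has a further probe set at 1.59, above its chosen one at 0.63.

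Ciliary genes outside the 48 were taken from further lists by function. The brightest probe set again stood for each gene, and for some genes a further one had the opposite sign. Cplane1 had 0.34, but all its further probe sets lay below 0. Sclt1 had -0.21 against 0.38 in a further one, and Tmem107 had 0.85 against 0.41 and -0.30. Of 14 other intraflagellar transport and dynein-2 genes 3 passed as higher and 0 as lower, against 1.52% and 0.709% of all genes. Their median was 0.30, with 11 above 0 and 3 below (41.2% and 58.8% of all genes). Ttc26, which encodes the IFT-B subunit IFT56, read 4.46 and 4.23 in control and 5.81 and 5.38 with SAHA, a rise of 2.37-fold (1.25 ± 0.18, SE, adjusted p = 0.0334). Ttc30a1, an IFT70 gene, rose 1.82-fold and Wdr60, a dynein-2 intermediate chain, rose 1.83-fold, both with an adjusted p of 0.0447. Both lost the call without each array in turn, and Ttc26 lost it without SAHA replicate 1 (adjusted p = 0.139). Ttc30b, the close relative of Ttc30a1, had 0.80 (adjusted p = 0.0546).

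None of 11 other BBSome and trafficking genes and none of 15 other transition zone and nephronophthisis genes passed, with medians of 0.22 and 0.29. Among them Lztfl1, a BBSome regulator, had 0.67, Wdpcp 0.77 and Invs, the inversin gene, 0.92 (adjusted p = 0.0796, 0.0812 and 0.0509). At an unadjusted p under 0.05 these lists held 5 and 4 genes on the higher side and 0 and 1 on the lower, against 9.17% and 8.9% of all genes. Their medians were 0.02 and 0.18 without control replicate 1, and that of the BBSome and trafficking list was 0.04 among genes above the median level. Of 18 genes of distal appendages, basal bodies and satellites, 13 lay above 0 and 5 below (41.2% and 58.8% of all genes). Both SAHA arrays lay above both control arrays for 10 and below them for 4 (21.1% and 29.6% of all genes). Ccp110 alone passed, against 1.52% of all genes on the higher side, with a rise of 2.73-fold (1.45 ± 0.18, SE, adjusted p = 0.0214). CCP110 caps the mother centriole and is known to restrain cilium assembly. It read 5.88 and 5.52 in control and 7.20 and 7.11 with SAHA, and without SAHA replicate 1 or 2 the adjusted p was 0.132 or 0.0777. The median of the 18 genes, 0.31, was 0.16 with averaged probe sets and 0.19 without control replicate 2. None of the 6 carriers of lipidated cargo passed, with a median of 0.48 (0.28 without control replicate 2) and 3 genes on the higher side at an unadjusted p under 0.05, and Unc119 had 0.78 (adjusted p = 0.280).

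Regulators of cilia are given beside these lists without a test of the difference. None of 7 ciliary transcription factor genes passed, none did so at an unadjusted p under 0.05, and their median was -0.02, between -0.16 and 0.10 over the alternatives. Rfx1, Rfx2 and Rfx3 had 0.10, -0.02 and -0.16 with overlapping groups, and Foxj1, the regulator of motile ciliogenesis, had -0.23. Of 7 genes of cilium disassembly none passed and 6 lay below 0 (58.8% of all genes). At an unadjusted p under 0.05, 2 were lower and 0 higher (8.9% and 9.17% of all genes). Ndel1, counted below 0 at -0.02, had a further probe set at 0.93 with both SAHA arrays above both control arrays. Kif2a was counted at -0.06, and its further probe sets ran from -0.26 to 0.08. Aurka, the mitotic kinase that also drives cilium loss, read 7.24 and 6.35 in control and 5.85 and 5.38 with SAHA (-1.18 ± 0.32, adjusted p = 0.127). Hdac6, a tubulin deacetylase that acts with Aurora A in disassembly and is itself blocked by SAHA, had 0.42 ± 0.20 (adjusted p = 0.343).

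**Figure D5:**
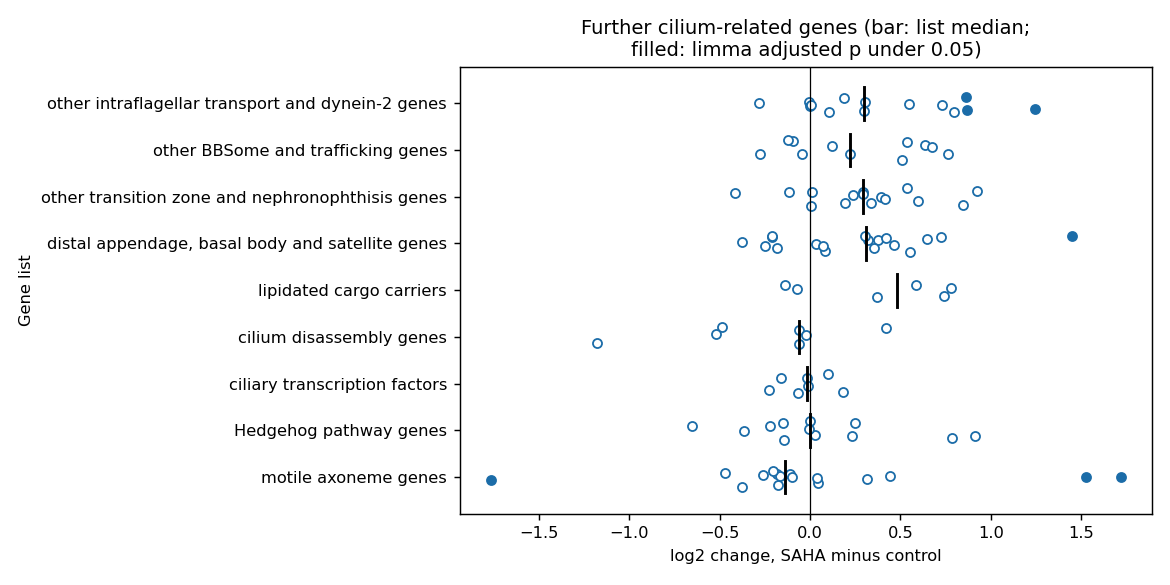
Log2 change, SAHA minus control, of further cilium-related genes by list, 1 point a gene with vertical scatter for legibility; bars are list medians and filled points passed the adjusted p threshold. The medians of the 4 lists of transport, BBSome, transition zone and basal body genes lie at 0.22 to 0.31. That of the carriers of lipidated cargo lies at 0.48, and those of disassembly genes and transcription factors at -0.06 and -0.02. The motile axoneme and Hedgehog lists have medians of -0.14 and -0.003.

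Markers were read on the same arrays to check the cells. The 10 dendritic cell markers were all above the 25th percentile, with Itgax (CD11c) at 12.4 to 13.4 and Cd74 at 14.2, and their summed linear values were 54800 to 56670 in control and 51640 to 52570 with SAHA. Irf4 rose (0.81, adjusted p = 0.0431), while Dpp4 and Ccr7 had -0.87 and -0.49 (adjusted p = 0.0909 and 0.118). For 4 of the 10 both SAHA arrays lay below both control arrays, against 29.6% of all genes. Macrophage markers, which such cultures also hold, summed to 43180 and 44620 in control and 39010 and 41300 with SAHA. All 6 measured ones lay below 0, against 58.8% of all genes. For 4 of the 6 both SAHA arrays lay below both control arrays (29.6% of all genes), and Mertk had -0.92 (adjusted p = 0.0509). Of 9 neutrophil markers 5 passed as lower and Prtn3 as higher, against 0.709% and 1.52% of all genes. Their sum went from 3392 and 3085 to 2178 and 2003, and the part of these cells in the ciliary changes was not tested. Fibroblasts are cells that commonly carry a primary cilium. Their 10 markers summed to 279.3 and 334.5 in control and 288.9 and 324.2 with SAHA, with none past the threshold. At an unadjusted p under 0.05, 1 was higher (Thy1, 0.46) and 0 lower. Of the 10, 7 were above the 25th percentile on every array, such as Dcn at 5.45 to 6.43 and Col1a2 at 5.30 to 5.54, and 1, Col3a1, was under it on every array. For Actb, the 3′ probe set minus the 5′ one on the log2 scale, a measure of RNA integrity, was 0.16 to 0.23 in control and 0.24 to 0.26 with SAHA; for Gapdh it was -0.11 and -0.21 in control and -0.13 and 0.00 with SAHA.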

How the data were processed

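The authors deposited 1 table of log2 expression values per probe set, which lay between 2.59 and 15.0; the log2 scale was read from the values. Per the labels' protocols, Trizol was used for extraction, and 6 µg of total RNA went into the biotinylated cRNA. The submitters' processing notes name R 2.7, while the methods of summarisation and normalization are not given in the sources used here. Array medians were 5.34 to 5.35, so the deposited scaling was kept. Of 45101 probe sets, 34958 had 1 symbol, 932 several and 9211 none. Symbols were updated through Entrez identifiers, found in RefSeq for 34754. Arrays give no read depth, and their number limits the precision.

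SAHA was set against control by limma 3.58.1 (R 4.3.3; lmFit, then eBayes with intensity trend, two-sided, no filter), with Benjamini-Hochberg adjustment over 18194 genes. An SE is the moderated standard error, and folds are ratios after undoing log2. On data simulated from the fitted variances the test recovered most changed genes, but the share of false calls exceeded the nominal rate. There the moderated variances were taken as the true ones and the values as independent, so that share does not give the false rate of the real arrays. Genes close to the threshold, such as Tctn1, lost the call in several alternative fits and are uncertain. Genes were named by rule: those past the threshold, the up to 4 largest non-overlapping changes per subcomplex, those with disagreeing probe sets, those next to the threshold, the leading gene of each further list, and 5 by name. Other names were added with their values in view. The members and lists were chosen with earlier results of these data known. Alternatives covered normalization, trend, robust spread, level filter, an offset of 32, probe set choice, threshold, replicate number and left-out arrays; a floor at the 25th percentile was added after seeing the data.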

Additional observations from a re-analysis of the deposited data

How the results depend on the processing

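Over all genes, 276 were higher and 129 lower. The counts were 154 and 72 among genes above the median level, 111 and 39 with every probe set on its own, 1954 and 1662 with the replicate block, and 7 and 1 at a threshold of 0.01; averaging probe sets gave 84 lower. Without single arrays they ranged from 25 to 362 higher and from 6 to 167 lower. Of the ciliary genes 8 were higher, against 4 among genes above the median level (26 genes fitted), 5 with an offset of 32, 3 with every probe set on its own, 0 at the threshold of 0.01, and 1 to 9 without single arrays; none was lower in these fits. With replicate number as a block 22 were higher and 1 lower (Ift172). The deviations of same-numbered arrays correlated at 0.567 across genes, but 2 pairs and no label of a shared culture do not pair the samples, so the block was used for no call. The median log2 change of the 45 genes, 0.41, was 0.37 with quantile normalization, 0.30 with the offset, 0.28 with averaged probe sets, and 0.32 to 0.47 without single arrays. Ift81 passed in 13 of the 14 alternative fits and Ift74 in 13, against 5 for Tctn1. The replicate block is counted among those 14 fits, and Ift81, Ift74 and Tctn1 all passed in it. The filter on level left Ift81 out of the genes tested. The sign was checked over 70 genes, the ciliary genes and a part of the others named here. Among them no change that passed in any of these fits had the sign opposite to its reported one. Several named genes, such as Irf4, Dpp4, Ccr7, Mertk and Thy1, were not among the 70.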

Other observations

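Genes of motile axonemes, which dendritic cells are not known to build, went both ways. Of 16 measured genes 2 rose and 1 fell (limma, adjusted p under 0.05), against 1.52% and 0.709% of all genes. The median log2 change was -0.14 (-0.07 with the offset of 32 or without SAHA replicate 2). Rsph9, a radial spoke head protein, read 5.97 and 6.33 log2 units in control and 7.83 and 7.91 with SAHA, a rise of 3.30-fold (1.72 ± 0.18, SE, adjusted p = 0.0146). Dnal1, an axonemal dynein light chain, read 5.32 and 5.10 in control and 6.76 and 6.71 with SAHA, a rise of 2.88-fold (1.53 ± 0.16, adjusted p = 0.0146), while its further probe sets gave -0.01 and 0.34. Both lost the call without SAHA replicate 1 (0.0876 and 0.0906) and without SAHA replicate 2 (0.0618 and 0.0564). Dnah2, an axonemal dynein heavy chain, read 9.77 and 10.41 in control and 7.97 and 8.68 with SAHA. It fell 3.40-fold (-1.76 ± 0.30, adjusted p = 0.0431). A further probe set of Dnah2 read 3.54 to 4.05 over the arrays, near the bottom of the scale, and gave -0.26. With averaged probe sets Dnah2 missed the threshold (-1.01, adjusted p = 0.1). Its call was lost without SAHA replicate 1 (0.172), SAHA replicate 2 (0.0505) or control replicate 2 (0.0590).

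Hedgehog signals pass through the primary cilium in ciliated cells. None of 12 measured genes of that pathway passed, with 2 higher and 2 lower at an unadjusted p under 0.05 in limma (9.17% and 8.9% of all genes) and a median log2 change of 0.00, which was 0.24 among genes above the median level and between -0.08 and 0.02 in the other fits. Ptch1, the receptor and a target gene of the pathway, read 7.95 and 7.44 in control and 8.72 and 8.50 with SAHA, a change of 0.91 ± 0.21 (adjusted p = 0.0909), while its further probe sets gave 0.25 and -0.30. Gli1, another target gene, read 3.84 and 4.29 in control and 5.22 and 4.49 with SAHA. The lowest of these values was below its array's 25th percentile, and the change of 0.79 ± 0.26 did not pass (adjusted p = 0.197). The 2 genes lower at the unadjusted p were Cdon and Gli3, with changes of -0.65 and -0.37 (adjusted p = 0.128 and 0.272). Of the 12 genes 6 lay above 0 and 6 below (41.2% and 58.8% of all genes).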
